A study of Mus musculus with 18 samples.

Results

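The 32 genes described here build cholesterol and fatty acids, and they were found among the 46078 genes of each deposited table by matching their symbols to gene identifiers of the mouse GRCm38 annotation. All 32 were matched. They were set as 19 sterol genes, with 16 enzymes from Hmgcs1 to Dhcr7 and the regulators Srebf2, Insig1 and Stard4, and 13 lipogenic genes that hold the fatty acid enzymes, Srebf1, Thrsp and Pnpla3. RNA sequencing compared female mice carrying an Xist homozygous deletion, called mutants, with female mice carrying an Xist heterozygous deletion, called controls. Both groups therefore lacked Xist on at least 1 X chromosome, and no library without a deletion was compared. The samples were primary tail-tip fibroblasts with 3 mutant and 3 control libraries, and spleen, liver and brain of postnatal day 1 with 2 mutant and 2 control libraries each. The labels do not say how the deletion was made, nor the strain or the age of the fibroblast donors.

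Cells make cholesterol from acetyl-CoA through mevalonate, farnesyl diphosphate, squalene and lanosterol. The genes of this route are switched on together by the transcription factor SREBP2, the product of Srebf2, when sterol in the endoplasmic reticulum is low, and Insig proteins hold the SREBP precursors there when sterol is plentiful. SREBP1, the product of Srebf1, favours the genes that make and desaturate fatty acids, which in liver also answer to insulin and carbohydrate. Nsdhl and Ebp are the X-linked genes of the set, and Xist is the RNA that silences an X chromosome in female cells.

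Xist had 11.0, 13.5 and 2.33 signal in mutant fibroblasts, against 141, 98.2 and 70.5 signal in control fibroblasts. Signal is the authors' scaled read count, close to CPM. Mutant spleens had 117 and 51.2, against 1205 and 1121 in control spleens. Mutant livers had 178 and 257, against 594 and 730 in control livers. Mutant brains had 3.62 and 4.15, against 666 and 683 in control brains. The genotypes did not overlap in any tissue, and mutant livers kept 32.8% of the mean control level. Reads in genes ranged from 12.4 to 29.2 M per library, so 1 read was worth 0.0343 to 0.0751 signal. The spleen library mutant 1 detected 32381 genes, against 25166 to 26940 in the other spleen libraries. Summed signal of 7 acinar pancreas markers was 11.7 and 7441 in mutant spleens and 920 and 1.07 in control spleens, and summed hepatocyte markers were 482 and 43.3 in mutant spleens and 387 and 23.7 in control spleens. Defining markers of the labelled tissue were present in liver, where 9 of 9 hepatocyte markers were tested, in brain, with 6 of 6 neuronal markers, and in fibroblasts, with 7 of 7 fibroblast markers. In spleen 5 of 6 lymphocyte and 7 of 7 erythroid markers were tested. Tested means a mean signal of at least 1, which does not by itself identify a tissue. In spleen 8 of 9 hepatocyte and 7 of 7 fibroblast markers were tested as well.

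The promoters are shown because genes of this route share binding letters near their start. A window of 250 bases upstream of a start was found in RefSeq (build GRCm38.p6) for 25 of the 32 genes, and Fads1, Scd1, Scd2, Fdps, Stard4, Sqle and Fdft1 had none. The windows below run 5′ to 3′ towards the gene, with capitals on each match of TCACNCCAC, a form of the sterol regulatory element, of the E-box CACGTG, and of the CCAAT box in either direction, which reads ATTGG in reverse. The 6 shown stand on the way to isoprenoids (Hmgcs1, Idi1), close the first sterol ring system (Lss), act in later steps (Hsd17b7, Nsdhl) or brake the pathway (Insig1).
Hmgcs1, chr13:119690101-119690350, plus strand: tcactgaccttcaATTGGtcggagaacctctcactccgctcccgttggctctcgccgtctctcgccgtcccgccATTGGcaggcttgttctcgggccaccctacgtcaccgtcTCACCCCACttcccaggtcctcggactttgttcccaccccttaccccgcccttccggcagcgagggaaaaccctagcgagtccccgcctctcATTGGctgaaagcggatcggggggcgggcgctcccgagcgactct
Idi1, chr13:8885356-8885605, plus strand: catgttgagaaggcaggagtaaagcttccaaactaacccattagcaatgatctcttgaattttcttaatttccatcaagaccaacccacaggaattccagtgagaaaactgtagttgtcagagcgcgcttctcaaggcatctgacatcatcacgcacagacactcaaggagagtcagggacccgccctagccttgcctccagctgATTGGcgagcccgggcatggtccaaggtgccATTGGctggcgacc
Lss, chr10:76531355-76531604, plus strand: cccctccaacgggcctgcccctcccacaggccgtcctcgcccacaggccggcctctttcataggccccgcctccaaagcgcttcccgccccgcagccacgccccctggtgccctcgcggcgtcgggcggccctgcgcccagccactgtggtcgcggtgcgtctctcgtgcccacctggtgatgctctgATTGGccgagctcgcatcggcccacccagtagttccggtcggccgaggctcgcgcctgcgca
Hsd17b7, chr1:169969206-169969455, minus strand: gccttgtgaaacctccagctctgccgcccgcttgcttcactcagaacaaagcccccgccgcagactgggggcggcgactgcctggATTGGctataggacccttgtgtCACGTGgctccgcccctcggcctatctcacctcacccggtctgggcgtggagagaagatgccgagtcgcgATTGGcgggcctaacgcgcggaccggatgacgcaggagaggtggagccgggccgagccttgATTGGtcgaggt
Nsdhl, chrX:72918271-72918520, plus strand: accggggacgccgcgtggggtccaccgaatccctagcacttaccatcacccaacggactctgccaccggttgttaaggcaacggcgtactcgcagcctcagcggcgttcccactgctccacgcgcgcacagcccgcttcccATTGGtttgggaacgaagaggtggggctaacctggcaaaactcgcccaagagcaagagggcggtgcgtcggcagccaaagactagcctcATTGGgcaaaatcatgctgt
Insig1, chr5:28071162-28071411, plus strand: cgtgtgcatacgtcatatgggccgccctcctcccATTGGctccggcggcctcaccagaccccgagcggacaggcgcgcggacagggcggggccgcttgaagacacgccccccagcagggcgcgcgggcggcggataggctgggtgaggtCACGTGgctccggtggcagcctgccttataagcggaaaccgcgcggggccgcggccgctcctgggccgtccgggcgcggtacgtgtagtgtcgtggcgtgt

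Both strands of the windows were searched, and the 3 motifs do not overlap in these 6 windows. CCAAT was found in 21 of 25 genes, in 15 of 15 sterol and 6 of 10 lipogenic genes with a window, against 39.5% of 17491 coding genes. In the Hmgcs1 window it stands 3 times. CACGTG was found in 5 of 25, namely Dhcr7, Elovl5, Hsd17b7, Insig1 and Sc5d, against 7.61% of coding genes. TCACNCCAC was found in 1 of 25, in Hmgcs1 from 137 bases upstream of the start, against 1.20% of coding genes. Some genes have several annotated starts, so the 25 genes had 31 windows, and a gene was counted where any of its windows held the letters. These are letter matches, and factor binding was not measured.

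Levels per kilobase of exon differed widely among the genes and between tissues. Scd2, a stearoyl-CoA desaturase, was the highest of the 32 in fibroblasts, at 276 ± 120 signal per kb in mutants and 335 ± 175 in controls (SD, n = 3 each), and in brain, at 190 ± 5.12 in mutants and 197 ± 4.40 in controls (SD, n = 2 each). In fibroblasts Acly, which supplies cytosolic acetyl-CoA, came next with 76.0 ± 26.8 signal per kb in mutants and 101 ± 42.0 in controls, and Hmgcs1, Scd1 and Fasn followed with control means of 69.1, 63.2 and 62.3 that lay within 1 SD of each other. In brain Fasn, the fatty acid synthase, had 122 ± 7.19 in mutants and 127 ± 0.898 in controls, and Hmgcs1, which makes HMG-CoA, had 96.2 ± 11.9 in mutants and 106 ± 12.0 in controls.

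Liver had a different order, with the desaturases of polyunsaturated fatty acids leading in controls. Fads2 had 13.3 ± 2.35 signal per kb in mutant livers and 50.2 ± 22.7 in control livers, and Fads1 had 16.2 ± 3.07 in mutant livers and 35.4 ± 12.4 in control livers. The difference between these neighbours did not exceed their spread. Spleen was led by Acly, with 47.2 ± 12.4 signal per kb in mutants and 53.2 ± 7.36 in controls, and by Scd2, with 40.3 ± 18.5 in mutants and 31.7 ± 4.21 in controls. By control means 20 genes were highest in fibroblasts, 11 in brain, and 1, Ebp, in liver. The fibroblast control means were raised by the library control 1, which was highest for 27 of 30 tested members. By mutant means some of these genes, Sqle and Lss among them, were not highest in fibroblasts. Each tissue was normalized on its own by the authors, so levels between tissues are an approximate scale. Fdps, farnesyl diphosphate synthase, was low throughout, and 4 near-identical copies with 96.1% to 98.9% identity could divide its reads. Another gene, Gm43738, overlaps 1124 of its exon bases on the same strand and is 100% identical to it over 929 bases. The part of either in its low count was not tested.

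**Figure D1:**
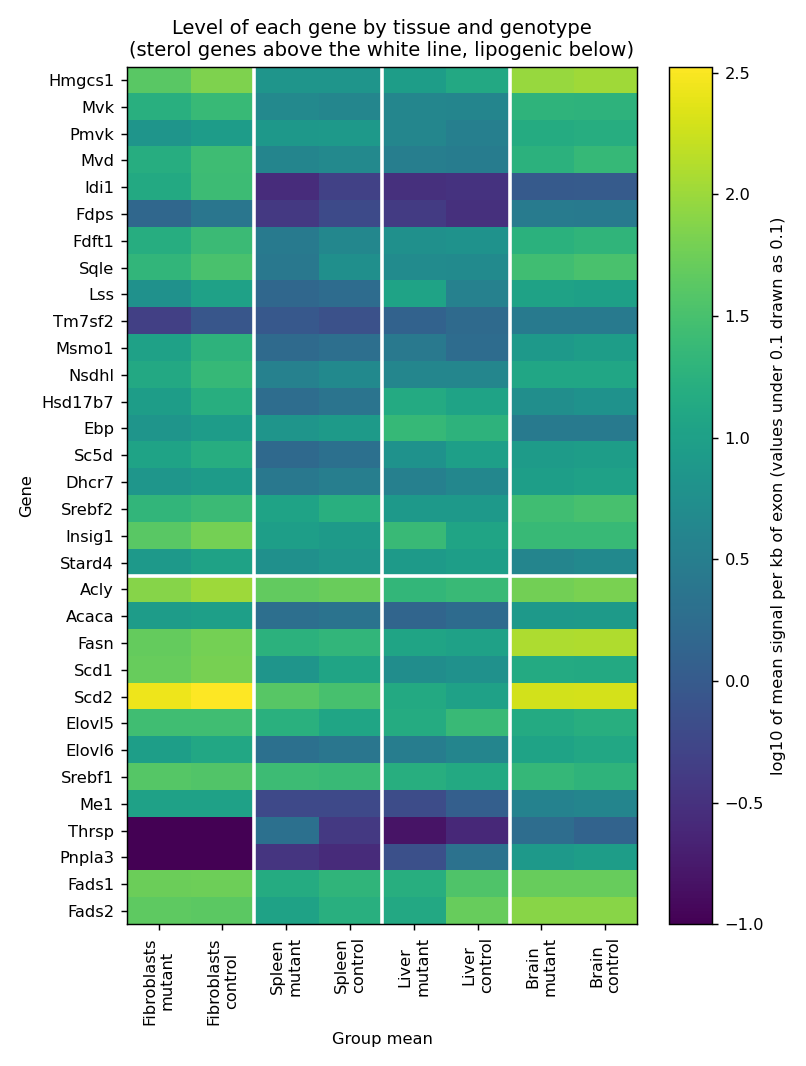
Mean signal per kb of exon (log10 colour scale) of the 32 genes in the mutant and control group of each tissue, with sterol genes above the line and lipogenic genes below it. Scd2 is brightest in fibroblasts and brain, while Thrsp and Pnpla3 are darkest in fibroblasts.

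Genotype was compared within each tissue by limma on log2(signal + 0.5) over all genes with a mean signal of at least 1, which kept 30, 31, 31 and 32 of the 32 genes in fibroblasts, spleen, liver and brain. Thrsp was below that level in fibroblasts, with 0 signal in all 3 mutants and a mean of 0.0150 in controls, and in liver, with means of 0.338 in mutants and 0.559 in controls. Pnpla3 was below it in fibroblasts, with means of 0.130 in mutants and 0.123 in controls, and in spleen, with 0.547 in mutants and 0.416 in controls. At an adjusted p of 0.05, 0 of the tested members passed in any tissue, and limma called 0% of all tested genes in fibroblasts, spleen and liver and 0.0237% in brain. Xist, the deleted gene, did not pass limma in fibroblasts, spleen and liver either, at log2 fold changes of -3.70, -3.90 and -1.62. DESeq2 gave it adjusted p = 3.03e-05, 3.77e-14 and 8.90e-05 in these tissues. The lack of a limma call there thus does not show the lack of a difference. At an unadjusted p under 0.05, the members that passed numbered 0 of 30 in fibroblasts against 0.971% of all genes, 2 of 31 in spleen against 6.27%, 7 of 31 in liver against 6.67%, and 0 of 32 in brain against 4.07%. In spleen 1 of these was higher in mutants, against 4.69% of all genes, and 1 lower, against 1.57%. In liver 2 were higher, against 4.39% of all genes, and 5 lower, against 2.28%. DESeq2 on recovered reads called 0 members in fibroblasts (background 0.0229%), 1 in spleen (1.10%), 2 in liver (1.40%) and 0 in brain (0.242%), and edgeR called 0 in each tissue, with 0, 0, 0 and 4 of all genes. The values that follow are therefore descriptions of these libraries unless a test is named.

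**Figure D2:**
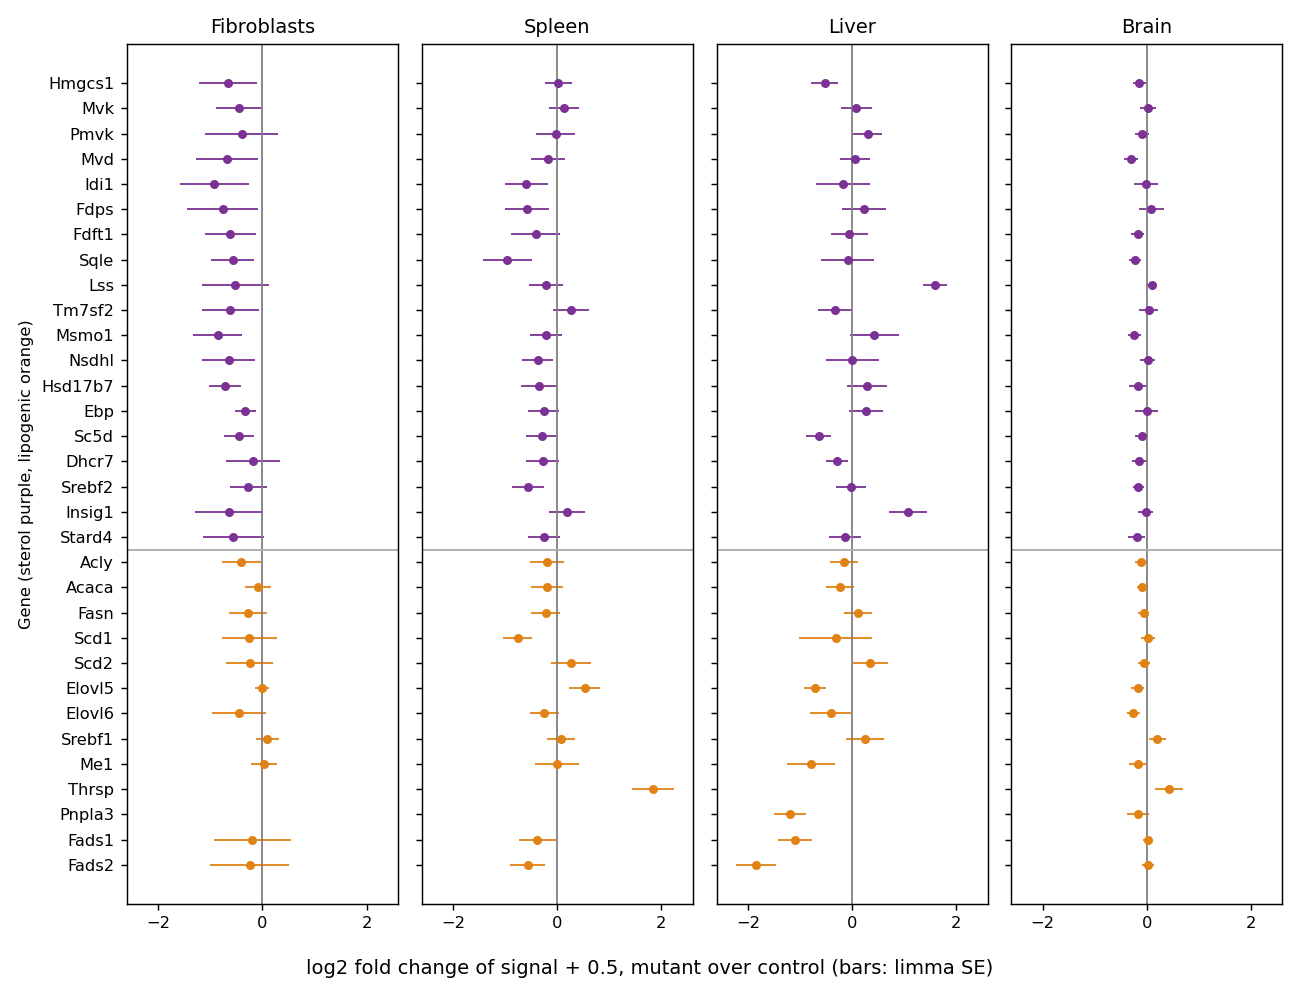
Log2 fold change of signal + 0.5, mutant over control, for each tested gene in fibroblasts, spleen, liver and brain (points, with bars for the limma SE), sterol genes above and lipogenic genes below. Lss at 1.60 and Fads2 at -1.84 in liver and Thrsp at 1.84 in spleen lie farthest from 0.

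In fibroblasts the sterol genes moved together from library to library, and the order of the libraries did not follow genotype. Control 1 held the highest signal for 19 of 19 sterol genes, while it was highest for 13.1% of all tested genes. Mutant 1 held the lowest signal for 17 of 19, while it was lowest for 24.0% of all tested genes. The mean log2 level of the 19 genes, relative to the control mean, was -1.30, 0.03 and -0.43 in mutants 1 to 3 and 0.90, -0.36 and -0.54 in controls 1 to 3. Mutant 2 was thus the second highest library and lay above controls 2 and 3.

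Hmgcs1, the first enzyme of the set, had 97.3, 290 and 187 signal in mutants, against 568, 196 and 187 signal in controls. The extreme libraries were mutant 1 and control 1, and the other 4 lay between. Msmo1, which removes methyl groups from lanosterol products, had 33.2, 80.6 and 78.0 in mutants and 190, 77.3 and 84.7 in controls, a log2 fold change of -0.85 (SE 0.47, adjusted p = 1.00 by limma). Control 1 again stood alone at the top. Idi1, which isomerizes isopentenyl diphosphate, had 17.6, 70.7 and 55.4 in mutants and 167, 56.0 and 50.7 in controls (log2 fold change -0.92, SE 0.66, adjusted p = 1.00 by limma).

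The enzymes around squalene also had control 1 highest and mutant 1 lowest. Fdft1, squalene synthase, had 35.8, 93.4 and 72.4 signal in mutants and 176, 69.0 and 71.8 in controls, and part of its exons overlaps Ctsb on the opposite strand over 774 bases. Sqle, squalene epoxidase, had 81.6, 143 and 118 in mutants and 305, 123 and 119 in controls. Sc5d, a sterol desaturase of the last steps, had 43.0, 63.0 and 56.5 in mutants and 112, 56.1 and 62.0 in controls. For all 3, mutant 2 lay above controls 2 and 3.

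Hsd17b7, a ketosteroid reductase, was the member whose groups did not overlap in fibroblasts. It had 44.4, 44.4 and 50.0 signal in mutants, against 126, 55.2 and 63.5 in controls, a log2 fold change of -0.71 (SE 0.31, adjusted p = 1.00 by limma). Of all tested genes 1.65% were lower in mutants without overlap, and 2.07% higher, where 0 members stood. The regulators varied with the enzymes. Insig1 had 45.1, 204 and 144 signal in mutants and 326, 146 and 104 in controls. Srebf2 had 103, 199 and 141 in mutants and 265, 157 and 122 in controls, with control 1 highest and mutant 2 next for both.

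Lipogenic genes of the fibroblasts shared this order in part. Control 1 was highest for 8 of 11 and mutant 1 lowest for 7 of 11, and mutant 2 was highest for the other 3. Their mean log2 level was -0.74, 0.37 and -0.18 in mutants and 0.63, -0.11 and -0.52 in controls. Scd2 had 976, 2243 and 1312 signal in mutants and 2908, 1495 and 1086 in controls. Fads1, which desaturates polyunsaturated fatty acids, had 80.5, 479 and 218 in mutants and 415, 270 and 112 in controls, with mutant 2 above every control. Srebf1 itself varied less, with 175, 267 and 218 in mutants and 248, 208 and 162 in controls, and Elovl5, a fatty acid elongase, varied little, with 95.2, 105 and 90.2 in mutants and 112, 93.2 and 87.5 in controls.

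**Figure D3:**
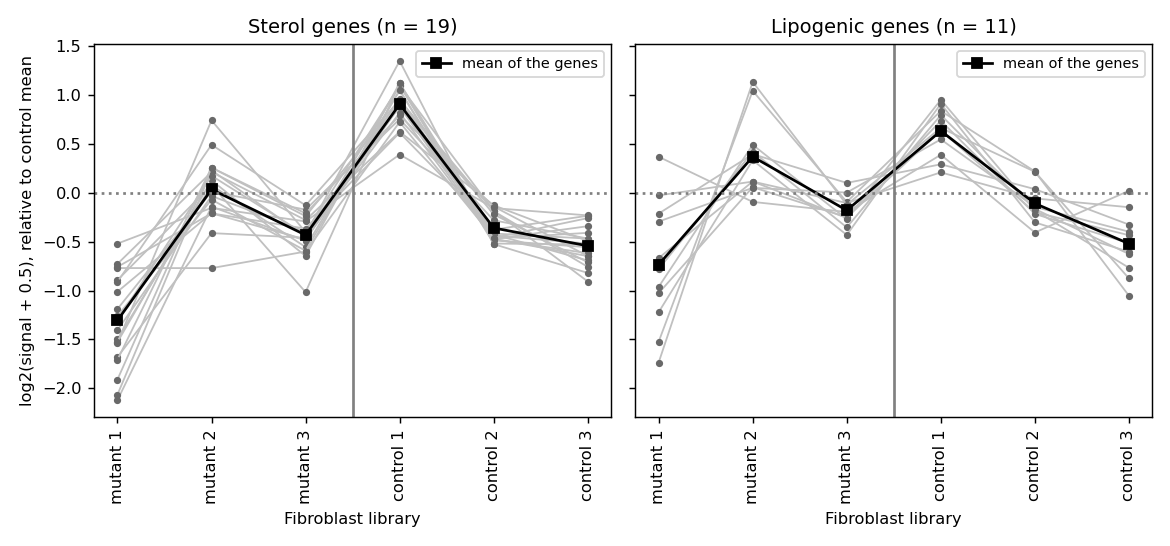
Log2(signal + 0.5) of each tested gene in the 6 fibroblast libraries, relative to its control mean (grey lines), with the mean over genes in black, for 19 sterol genes on the left and 11 lipogenic genes on the right. Mutant 1 is lowest, at a sterol mean of -1.30, and control 1 highest, at 0.90, with the other 4 libraries between them.

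The median log2 fold change in fibroblasts was -0.61 over the 19 sterol genes, all below 0, and -0.24 over the 11 lipogenic genes, with 9 below 0, against -0.00 over all 13077 tested genes, of which 48.9% were above 0. Sterol fold changes ran from -0.92 to -0.18 and lipogenic ones from -0.44 to 0.09, on the log2 scale. Without control 1 and mutant 1 the medians turned to 0.28 for sterol and 0.39 for lipogenic genes. Leaving out control 1 alone gave -0.13 and 0.16. Marker sums also differed between these libraries. Summed adipocyte markers had 2.55, 16.5 and 14.5 signal in mutants and 19.3, 14.4 and 7.21 in controls, with 2 of 8 tested, almost all of it Fabp4 and Plin4, and with Adipoq, Cidec and Lep at 0. Summed fibroblast markers were 44767, 32431 and 29947 in mutants and 28392, 29115 and 28794 in controls, so mutant 1 stood apart there and control 1 did not. The markers of this list differed, as Dcn and Lum were highest in mutant 2, at 599 and 510, and the others in mutant 1. Whether these differences between libraries have a part in the sterol values was not tested.

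In liver the members farthest from 0 were a sterol gene on the higher side and a lipogenic gene on the lower side. Lss, lanosterol synthase (chr10:76531588-76557138, GRCm38), had 135 and 103 signal in mutants, against 39.9 and 37.4 in controls, 3.08 times the control mean. The mutants lay above both controls by more than the spread within either group. Its log2 fold change was 1.60 (SE 0.23), with adjusted p = 0.336 by limma and adjusted p = 0.0006 by DESeq2. An antisense gene, 4930483K19Rik, overlaps 381 of its exon bases and had at most 0.318 signal in any liver library. The strand setting of the counting is not known here.

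Insig1, the sterol-sensing brake on SREBP release (chr5:28071363-28078662), had 94.4 and 55.6 signal in mutant livers and 41.7 and 28.0 in control livers, a log2 fold change of 1.07 (SE 0.36, adjusted p = 0.711 by limma). The groups did not overlap. Srebf2 had 66.9 and 46.9 in mutants and 65.8 and 49.1 in controls, so the replicates of a group differed more than the groups. Other sterol enzymes lay on both sides. Hmgcs1 had 46.8 and 38.3 in mutants and 71.9 and 52.1 in controls (log2 fold change -0.53, SE 0.26, adjusted p = 0.800 by limma). Sc5d had 26.3 and 33.9 in mutants and 50.7 and 43.0 in controls (-0.64, SE 0.24, adjusted p = 0.740 by limma).

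Among lipogenic members of the liver, 4 were lower in mutants without overlap. Fads2 (chr19:10062765-10101746) had 38.3 and 49.3 signal in mutants, against 113 and 218 in controls, 26.5% of the control mean. Its log2 fold change was -1.84 (SE 0.38), with adjusted p = 0.526 by limma and 0.0003 by DESeq2. Its neighbour Fads1 (chr19:10182888-10196877) had 88.3 and 67.4 in mutants and 128 and 213 in controls (-1.09, SE 0.33, adjusted p = 0.675 by limma and 0.0970 by DESeq2). Elovl5, which elongates the products of these desaturases, had 48.0 and 56.6 in mutants and 84.0 and 88.3 in controls (-0.72, SE 0.21, adjusted p = 0.675 by limma). Pnpla3, a lipid droplet acyltransferase and lipase, had 1.19 and 1.06 in mutants and 2.61 and 3.98 in controls (-1.20, SE 0.31, adjusted p = 0.618 by limma), from 25 and 31 reads in mutants and 41 and 99 in controls. In all, 7 of 31 members were lower in mutant livers without overlap and 3 higher, against 13.1% and 23.5% of all tested genes.

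Other lipogenic members overlapped between the genotypes in liver. Fasn had 151 and 103 signal in mutants and 113 and 118 in controls. Acaca, the carboxylase that makes malonyl-CoA, had 26.1 and 22.8 in mutants and 23.9 and 34.5 in controls, and 1 near-identical copy could share its reads. Scd1 had 39.8 and 11.8 in mutants and 42.6 and 17.3 in controls. Srebf1 had 105 and 75.6 in mutants and 55.9 and 99.7 in controls. Me1, Scd2, Elovl6 and Acly also overlapped, with log2 fold changes of -0.78, 0.35, -0.41 and -0.16.

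**Figure D4:**
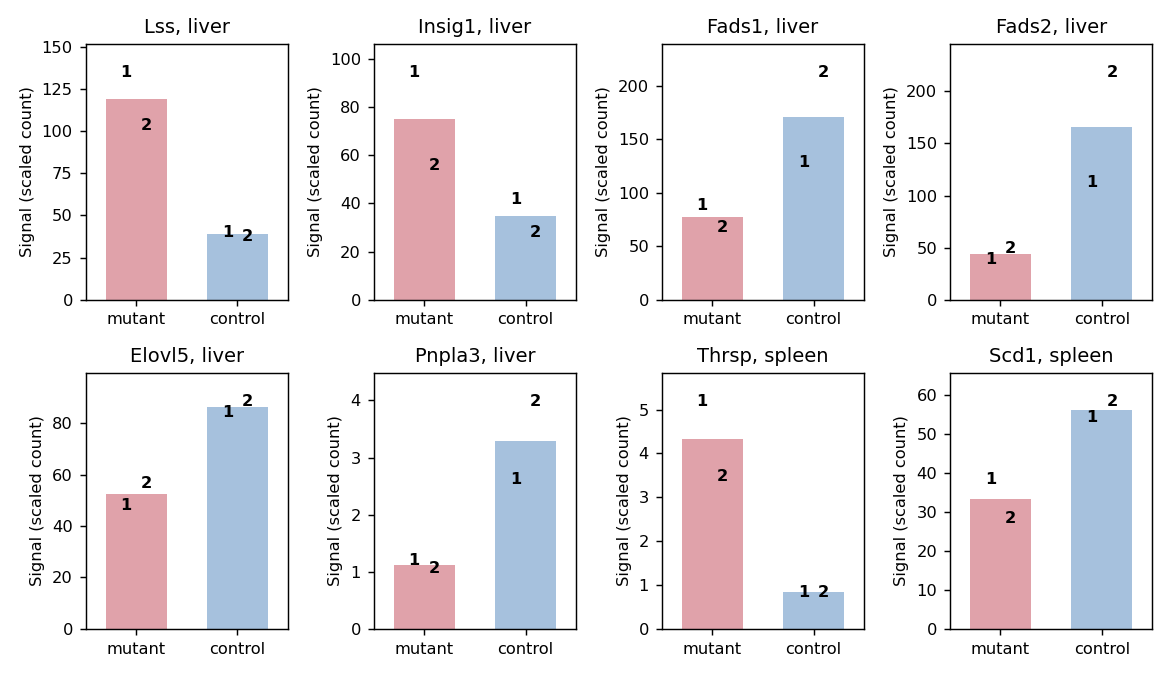
Signal of 6 genes in liver and 2 in spleen, with bars for the group mean from 0 and the digits 1 and 2 centred on the value of each library, mutant left and control right. The 8 are members of smallest p in their tissue, and the 2 groups do not overlap in any panel. Of all tested genes 23.5% were higher and 13.1% lower in mutants without overlap in liver, and 18.3% and 21.9% in spleen. The control livers differ widely for Fads2, at 113 and 218.

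Over the sterol genes of the liver the median log2 fold change was 0.01, with 10 of 19 above 0, and over the lipogenic genes -0.36, with 3 of 12 above 0, against 0.05 over all 15075 tested genes, of which 55.9% were above 0. Members apart from those given above lay between -0.78, for Me1, and 0.42, for Msmo1. The mean log2 level of sterol minus lipogenic genes was 0.73 and 0.49 in mutant livers and 0.26 and -0.26 in control livers. The groups did not overlap, but the 2 control livers differed from each other by more than mutant 2 differed from control 1, and no test of the difference was run. In fibroblasts the values were -0.57, -0.33 and -0.2521 in mutants and 0.27, -0.2502 and -0.02 in controls. In spleen they were -0.40 and -0.14 in mutants and 0.09 and -0.09 in controls. The groups of these tissues did not overlap either, with mutants lower, opposite to liver. Mutant 3 and control 2 of the fibroblasts were nearly equal. Brain had -0.14 and 0.02 in mutants and 0.01 and -0.01 in controls. Summed hepatocyte markers in liver were 147803 and 123319 signal in mutants and 153324 and 130671 in controls, and summed erythroid markers were 6060 and 2474 in mutants and 5487 and 1514 in controls. These sums did not separate the genotypes, nor did summed fibroblast markers, at 6809 and 8045 in mutants and 7627 and 8084 in controls. Most of that last sum was Fn1, at 6205 and 7533 in mutants and 7264 and 7638 in controls. It therefore says little about the other fibroblast markers. Of the 7 fibroblast markers 6 were tested, and 5 were higher in mutant livers without overlap, against 23.5% of all tested genes. Alb was the largest part of the hepatocyte sum. Among single hepatocyte markers Fgb was higher in mutants without overlap, at 10435 and 10344 against 8799 and 7430 in controls. Ttr was lower without overlap, at 1172 and 779 against 2451 and 1573 in controls, as were 13.1% of all tested genes. In bulk tissue fewer cells of a type and less RNA per cell cannot be told apart.

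**Figure D5:**
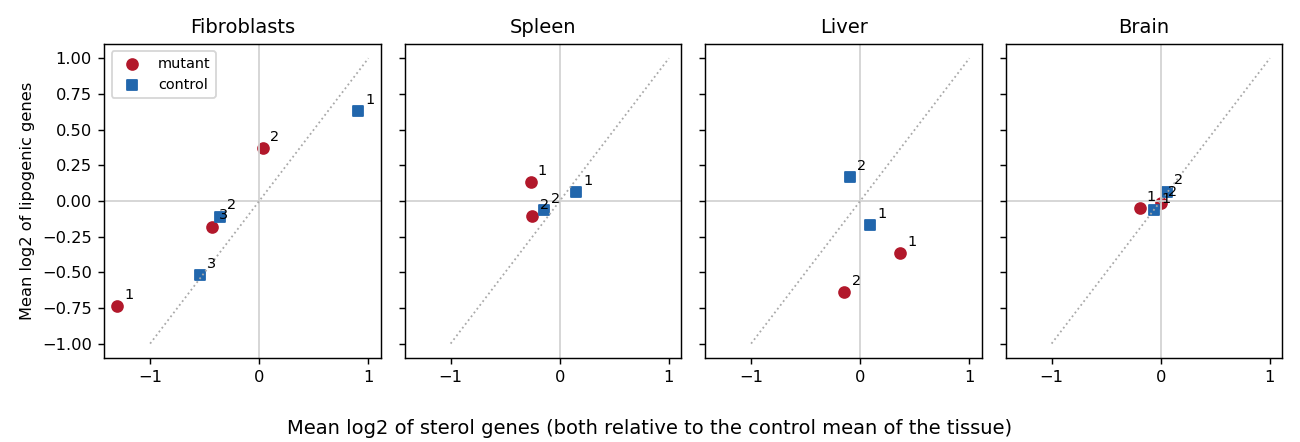
Mean log2 level of sterol genes (x) against that of lipogenic genes (y) in each library, both relative to the control mean of the tissue, with mutants as circles and controls as squares and the diagonal of equal values dotted. In liver both mutants lie below the diagonal, by 0.73 and 0.49, and control 1 by 0.26. The mutants of fibroblasts and spleen lie above it, while in brain all 4 libraries lie near the origin.

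In spleen Thrsp, a regulator of fatty acid synthesis that responds to thyroid hormone (chr7:97412938-97417730), had 5.18 and 3.48 signal in mutants, against 0.827 and 0.835 in controls. These values rest on 69 and 65 reads in mutants and 12 and 14 in controls. The mutants lay above both controls, with a log2 fold change of 1.84 (SE 0.40), adjusted p = 0.460 by limma and 0.0368 by DESeq2. Fabp4, a fatty acid carrier of adipocytes, macrophages and capillary endothelium, moved with it, at 96.3 and 35.9 in mutants and 10.5 and 9.66 in controls. The 8 adipocyte markers summed to 100.3 and 37.4 in mutants and 11.9 and 10.4 in controls, and Fabp4 was the 1 of them tested. Plin4 had 1.43 and 1.13 in mutants and 0.483 and 0.298 in controls. The defining marker Adipoq had 0 in both mutants and 0.138 and 0.119 in controls, where 3 reads are worth 0.207 and 0.179. Plin1 had 1.05 and 0.0536 in mutants and 0 and 0.0596 in controls, and Lep 0.601 and 0 against 0.0689 and 0. Retn had 0.376 and 0.214 in mutants and 0.207 and 0.179 in controls, and Cidec and Cfd overlapped. Whether other cells have a part in the Thrsp value was not tested.

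Scd1, which makes monounsaturated fatty acids, had 38.5 and 28.4 signal in mutant spleens and 54.2 and 58.4 in control spleens (log2 fold change -0.76, SE 0.28, adjusted p = 0.763 by limma). Fads2 had 34.3 and 37.0 in mutants and 69.8 and 40.3 in controls (-0.57, SE 0.33, adjusted p = 0.779 by limma). Elovl5 stood on the other side, with 69.4 and 51.7 in mutants and 35.6 and 48.2 in controls (0.53, SE 0.30, adjusted p = 0.779 by limma). Srebf1 overlapped, at 145 and 148 in mutants and 154 and 125 in controls.

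Among sterol genes of the spleen Sqle had 16.3 and 12.2 signal in mutants and 45.2 and 17.1 in controls (log2 fold change -0.96, SE 0.47, adjusted p = 0.779 by limma). Control 1 stood far above the other 3 libraries. Srebf2 had 88.2 and 70.9 in mutants and 142 and 95.7 in controls (-0.55, SE 0.31, adjusted p = 0.779 by limma). Idi1 was scarce, with 1.20 and 0.751 signal in mutants and 1.72 and 1.67 in controls, from 16 and 14 reads in mutants and 25 and 28 in controls. Fdps had 1.13 and 2.14 in mutants and 2.55 and 2.62 in controls. Hmgcs1 was level, with 32.2 and 31.6 in mutants and 30.9 and 31.8 in controls. Insig1 overlapped, with 23.2 and 35.6 in mutants and 30.3 and 20.9 in controls. Without control 1 the log2 fold change was -0.18 for Fads2, -0.27 for Srebf2 and -0.27 for Sqle, and without mutant 1 it was -0.22 for Fdps.

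Over all members in spleen, 12 were lower in mutants without overlap and 4 higher, of 31 tested, against 21.9% and 18.3% of all tested genes. The median log2 fold change was -0.26 for 19 sterol and -0.20 for 12 lipogenic genes, and -0.07 for all 16578 tested genes. Sterol fold changes ran from -0.96 to 0.27 on the log2 scale. Of the members 8 of 31 were above 0, against 43.5% of all tested genes. Summed erythroid markers were 3357 and 3675 signal in mutants and 13483 and 4582 in controls, with 5 of 7 lower without overlap (21.9% of all tested genes), and summed fibroblast markers were 5324 and 2974 in mutants and 2407 and 2569 in controls, with 6 of 7 higher (18.3%). The part of this difference in cell markers in the values of the spleen genes was not tested.

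In brain the differences were small for every member. The lowest log2 fold change was -0.30, for Mvd, which decarboxylates mevalonate diphosphate, with 32.4 and 36.6 signal in mutants and 39.8 and 45.8 in controls (SE 0.14, adjusted p = 1.00 by limma). Msmo1 had 45.1 and 51.0 in mutants and 54.3 and 59.6 in controls, and Sqle had 138 and 170 in mutants and 185 and 176 in controls. Elovl6, which elongates palmitate, had 63.2 and 77.6 in mutants and 85.5 and 82.9 in controls. Their log2 fold changes were -0.25, -0.23 and -0.26, each with adjusted p = 1.00 by limma.

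Srebf2 in brain had 190 and 216 signal in mutants and 232 and 223 in controls, Fdft1 had 71.5 and 78.3 in mutants and 92.3 and 77.8 in controls, and Elovl5 had 51.5 and 49.4 in mutants and 60.6 and 53.9 in controls. Their log2 fold changes were -0.17, -0.18 and -0.18. Thrsp had the highest, 0.43 (SE 0.27), with 4.07 and 3.83 in mutants and 2.19 and 3.56 in controls. Insig1 had 71.4 and 73.5 in mutants and 63.3 and 85.7 in controls, and Srebf1 126 and 125 in mutants and 90.4 and 131 in controls. Both overlapped.

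Fads1 and Fads2, which stood far apart between the genotypes in liver, were close in brain. Fads1 had 250 and 242 signal in mutant brains and 247 and 239 in control brains, and Fads2 had 246 and 281 in mutants and 254 and 265 in controls. Lss had 115 and 117 in mutants and 106 and 112 in controls. Of the 32 genes in brain 9 were lower without overlap and 2 higher, against 16.3% and 13.8% of all tested genes, and 10 of 32 were above 0, against 46.1%. Mutant 1 was the lowest library for 20 of 32, against 30.6% of all tested genes. The mean log2 level of the sterol genes, relative to the control mean, was -0.19 and 0.004 in mutants and -0.06 and 0.06 in controls. Mutant 2 thus lay between the controls. Medians on the log2 scale were -0.10 for sterol, -0.07 for lipogenic and -0.01 for all 16909 tested genes.

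The X-linked enzymes Nsdhl (chrX:72918557-72958514), which removes a carboxyl group in sterol demethylation, and Ebp (chrX:8185329-8193512), a sterol isomerase, did not pass a test in any tissue. In fibroblasts Nsdhl had 23.4, 54.0 and 37.4 signal in mutants and 118, 39.4 and 39.2 in controls, with mutant 1 lowest and control 1 highest as for most autosomal sterol genes. Ebp had 13.7, 17.8 and 16.1 in mutants and 26.2, 17.7 and 16.8 in controls. The log2 fold changes were -0.64 (SE 0.51) and -0.32 (SE 0.21).

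In spleen Nsdhl had 9.99 and 10.1 signal in mutants and 14.8 and 11.7 in controls, and Ebp had 14.7 and 16.7 in mutants and 21.2 and 16.9 in controls. Both were lower in mutants without overlap, at -0.38 and -0.26, as were 21.9% of all tested genes in spleen. Liver Nsdhl had 16.0 and 7.48 in mutants and 15.8 and 7.48 in controls, and its sign changed with the scaling, from 0.01 as deposited to -0.01 at equal totals. Liver Ebp had 65.8 and 41.1 in mutants and 51.4 and 36.1 in controls. In brain Nsdhl had 31.7 and 38.1 in mutants and 36.2 and 32.5 in controls, and Ebp had 6.46 and 6.60 in mutants and 5.63 and 7.63 in controls, with overlap for both and a log2 fold change of -0.01 for Ebp that was 0.01 at equal totals.

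Other genes of the pathway were counted from 4 further lists. Of 9 other sterol genes 9 were tested in each tissue, and 0 passed limma at an adjusted p of 0.05. In fibroblasts their median log2 fold change was -0.43, and Cyp51, lanosterol demethylase, had 45.0, 172 and 117 signal in mutants and 320, 128 and 111 in controls. Control 1 was its highest library.

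In spleen 9 of 9 lay below 0, while 43.5% of all tested genes lay above 0. The median of the 9 was -0.36 on the log2 scale, against -0.07 over all tested genes. In liver and brain the median of this list was 0.04 and -0.02, against 0.05 and -0.01 over all tested genes. Ggps1, geranylgeranyl diphosphate synthase, had 17.3 and 20.1 signal in mutant spleens and 24.4 and 24.6 in control spleens. Ggps1 was lower in mutants without overlap, as were 21.9% of all tested genes. Its log2 fold change was -0.38 (SE 0.28, adjusted p = 0.782 by limma).

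Of 6 genes that hold, carry or cleave SREBP or act on its regulation, 0 passed limma at an adjusted p of 0.05. Insig2, the second Insig gene, had 99.0 and 99.7 signal in mutant livers and 49.6 and 44.4 in control livers, a log2 fold change of 1.07 (SE 0.20) with adjusted p = 0.456 by limma and 0.0496 by DESeq2. Libraries of the same genotype lay close together. The proteases Mbtps2 and Mbtps1 had 13.4 and 19.2 in mutants and 12.0 and 13.2 in controls, and 117 and 120 in mutants and 101 and 118 in controls. Fold changes of this list in fibroblasts lay between -0.09 and 0.06 on the log2 scale.

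Spleen Scap, the SREBP escort, had 78.6 and 102 signal in mutants and 95.6 and 124 in controls. In brain Mbtps1 had 154 and 137 in mutants and 126 and 119 in controls, and Mbtps2 37.9 and 34.9 in mutants and 36.9 and 27.1 in controls. In fibroblasts Mbtps1 had 265, 310 and 261 in mutants and 264, 276 and 259 in controls, and Insig2 52.3, 20.9 and 40.0 in mutants and 41.6, 32.3 and 39.3 in controls. None of these 5 had an adjusted p under 0.05 by limma.

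Of 17 other lipogenic genes, 13, 15, 16 and 16 were tested in fibroblasts, spleen, liver and brain and 0 passed limma. Lpin1, a phosphatidate phosphatase, stood out in liver, with 1652 and 835 signal in mutants, against 47.6 and 35.0 in controls, a log2 fold change of 4.83 (SE 0.40) with adjusted p = 0.134 by limma and 2.48e-21 by DESeq2. It was also higher in mutant spleens, with 122 and 78.2 against 32.8 and 49.0 in control spleens (1.27, SE 0.34, adjusted p = 0.599 by limma). Liver Gpam, which starts glycerolipid synthesis, had 388 and 325 in mutants and 135 and 191 in controls (1.15, SE 0.28, adjusted p = 0.605 by limma), and Agpat2, the next acyltransferase, had 61.1 and 120 in mutants and 159 and 170 in controls (-0.94, SE 0.37, adjusted p = 0.748 by limma).

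Elsewhere Lpin1 differed less, with 73.2 and 70.0 signal in mutant and 62.4 and 62.9 in control brains. In fibroblasts it had 21.2, 43.9 and 45.6 in mutants and 72.0, 40.7 and 39.6 in controls. Fibroblast Gpam had 28.4, 31.9 and 29.5 in mutants and 27.0, 27.2 and 24.2 in controls, and Dgat1, which makes triglyceride, had 17.3, 12.1 and 13.8 in mutants and 17.8, 15.1 and 16.4 in controls. Spleen Acacb, the mitochondrial acetyl-CoA carboxylase, had 49.3 and 49.9 in mutants and 18.1 and 40.2 in controls, and Elovl1 50.0 and 63.7 in mutants and 87.8 and 70.4 in controls. Brain Slc25a1, the citrate carrier, had 70.2 and 73.9 in mutants and 82.5 and 80.9 in controls.

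Of 9 genes of sterol sensing by LXR and sterol export, 7, 7, 9 and 7 were tested in the same order of tissues and 0 passed limma. Abca1, the exporter of cholesterol to apolipoprotein, had 593 and 405 signal in mutant and 144 and 296 in control spleens (log2 fold change 1.25, SE 0.43, adjusted p = 0.760 by limma). In brain it had 251 and 248 in mutants and 206 and 211 in controls (0.26, SE 0.10, adjusted p = 1.00 by limma). Abcg8, which exports sterol into bile, had 107 and 80.1 in mutant and 29.9 and 59.7 in control livers (1.12, SE 0.39, adjusted p = 0.731 by limma). The groups of each did not overlap. Of all tested genes 18.3% in spleen, 13.8% in brain and 23.5% in liver were higher in mutants without overlap.

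Abcg1, another exporter, had 47.2 and 41.8 signal in mutant and 35.3 and 36.0 in control brains. Its spleen values were 78.0 and 95.7 in mutants and 36.8 and 117 in controls, and its fibroblast values 26.1, 8.73 and 19.1 in mutants and 13.4, 16.1 and 10.8 in controls. Mylip, a ubiquitin ligase induced by LXR, had 39.7 and 42.4 in mutant and 24.8 and 33.9 in control livers. In spleen it had 70.2 and 88.6 in mutants and 64.6 and 78.5 in controls. Nceh1, a cholesteryl ester hydrolase, had 29.4 and 35.4 in mutant and 45.4 and 41.2 in control livers. It had 25.5 and 28.8 in mutants and 28.3 and 34.7 in controls in brain, and 12.9, 7.50 and 13.5 in mutants and 14.2, 11.1 and 17.3 in controls in fibroblasts. Fibroblast Soat1, which esterifies cholesterol, had 211, 83.4 and 172 in mutants and 141, 165 and 270 in controls, with mutant 2 lowest rather than mutant 1.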

How the data were processed

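The authors deposited 4 gene tables, 1 per tissue, whose values are scaled read counts, called signal here. Per the labels' protocols, ribosomal RNA was removed from Trizol-extracted RNA with RiboMinus before directional second-strand synthesis. Per the submitters' processing notes, HTSeq 0.6.1 counted reads on GRCm38 (mm10) and edgeR normalized them. The edgeR version, the aligner, the annotation release and the strand setting were not given in the sources used here. Deposited control columns are headed WT, while the labels give a heterozygous Xist deletion, and the labels were followed. The series text names heart where the labels name brain. Replicates were called biological by the submitters, and whether organs were pooled is not stated.

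In each library 100% of the nonzero deposited signal values were whole multiples of 1 read at a tolerance of 0.05, so reads were recovered. Of 46078 identifiers 45229 matched GENCODE mouse release 21, and the other 849, with at most 0.179% of a library's reads, were left out. log2(signal + 0.5) of genes with a mean of at least 1 was fitted within each tissue in R 4.3.3 with limma 3.58.1, using a trend and empirical Bayes, two-sided, with Benjamini-Hochberg adjustment over all tested genes at 0.05. Fold changes on this scale understate those of low genes. The count test planned for raw counts was run on recovered reads with edgeR 4.0.16 (quasi-likelihood) and DESeq2 1.42.0 as alternatives. The limma fit was also run on simulated counts with 200 changed genes, and no result given here rests on that run. Levels per kb used exon lengths of the annotation.

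The 32 genes and the other lists were chosen with earlier results of these data known. Named with values are, per tissue, the 8 members with the smallest p, and Nsdhl, Ebp, Srebf1, Srebf2 and Insig1, and from each other list its 3 genes of smallest p, apart from some that are not reported here. Other members with values, Hmgcs1 in fibroblasts and spleen among them, were chosen after their values were seen. Near-identical transcripts, at least 95% over 200 bases, exist for Acaca, Elovl6, Fdft1, Fdps, Idi1, Me1 and Scd2, and exons of 11 members overlap another gene, so their counts are uncertain. For Scd2 the copy is Scd1, over 623 bases.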

Additional observations from a re-analysis of the deposited data

Results flagged for a closer look

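In 3 pairs of tissues every mutant library of a gene lay on one side of both controls in one tissue and on the opposite side in the other, and the difference between tissues was not tested. Elovl5 had a log2 fold change of 0.53 in spleen and -0.72 in liver, a difference of 1.25. Between spleen and brain, where it was -0.18, its difference was 0.70. Pmvk, phosphomevalonate kinase, had 0.30 in liver and -0.10 in brain, a difference of 0.41, with 8.66 and 5.77 signal in mutant and 5.72 and 5.55 in control livers. Its brain values were 24.5 and 26.2 in mutants and 27.4 and 27.1 in controls. With 2 libraries a group, lack of overlap was common among all genes, at 13.1% to 23.5% in each direction in these 3 tissues.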

How the results depend on the processing

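The number of all genes called by limma was 0 in fibroblasts, spleen and liver and 4 in brain. DESeq2 called 3, 182, 211 and 41 genes, and fitting all genes without the filter gave 22 in spleen, 11 in liver and 13 in brain. Among members DESeq2 called 1 in spleen (Thrsp) and 2 in liver (Lss and Fads2). With the replicate number as a block, 356 genes were called in spleen, with Thrsp the 1 member, and 60 in liver, with Lss the 1 member, and 0 and 4 genes in fibroblasts and brain. Same-numbered libraries correlated at -0.08, 0.43 and 0.02 in fibroblasts, -0.03 in spleen, 0.58 in liver and 0.08 in brain, and the labels tie no number to a shared litter, batch or day. With fewer than 3 pairs in an organ, the 0.58 in liver does not settle pairing, and the numbers were not taken as pairs. edgeR called 0, 0, 0 and 4 genes and 0 members.

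Leaving out 1 library gave 0 to 177 genes in spleen, 6 to 109 in brain and 0 in the others, with 0 members in each tissue. The sterol medians ran from -0.93 to -0.13 in fibroblasts, -0.42 to -0.21 in spleen, -0.25 to 0.34 in liver and -0.16 to -0.02 in brain, and the lipogenic medians from -0.57 to 0.16, -0.23 to 0.021, -0.58 to -0.22 and -0.08 to -0.02. In fibroblasts without control 1 and mutant 1, a setting chosen after seeing the data, the sterol and lipogenic medians were 0.28 and 0.39. There Sc5d (0.017), Idi1 (0.23), Sqle (0.099), Nsdhl (0.19), Fdft1 (0.22), Srebf2 (0.28) and Insig1 (0.47) changed sign. Liver Nsdhl was -0.0098 at equal totals, -0.038 with DESeq2 size factors, -0.069 in DESeq2 and -0.054 in edgeR, and brain Ebp was 0.012 at equal totals.

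Signs also turned when 1 library was left out for some genes that did not pass a test, among them fibroblast Insig1, at -0.63 with all libraries. In fibroblasts Srebf1 ran from -0.070 to 0.25, Srebf2 from -0.51 to 0.046 and Insig1 from -1.07 to 0.0079. In spleen Srebf1 ran from -0.074 to 0.23 and Insig1 from -0.11 to 0.49. In liver the ranges were -0.52 to 0.53 for Nsdhl, -0.066 to 0.61 for Ebp, -0.16 to 0.67 for Srebf1 and -0.27 to 0.23 for Srebf2. In brain they were -0.11 to 0.15 for Nsdhl, -0.21 to 0.20 for Ebp, -0.067 to 0.47 for Srebf1 and -0.24 to 0.19 for Insig1. Lss, Fads2, Fads1, Elovl5, Pnpla3 and Insig1 in liver and Thrsp in spleen kept their sign under all settings run. The cause of these changes was not tested. Depth limits the scarce members most, such as Idi1 in spleen with 14 to 28 reads a library.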
